A study of Bos taurus with 12 samples.

Results

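The miR-26 family of the cow was followed in granulosa cells from 2 kinds of follicle, subordinate (SF) and dominant (DF), taken at day 3 or at day 7 of the cycle. Its members were taken by name from the read counts of 755 mature miRNAs, which gave 2 of them, bta-miR-26a and bta-miR-26b. Small RNA was sequenced from 12 samples of Simmental heifers whose estrus had been synchronized, with 3 biological replicates in each of the 4 groups. Follicles were sorted into SF and DF by diameter, with a higher limit for SF at day 7 than at day 3, and fluid of follicles of like size was pooled before the cells were spun down, so that a sample can hold cells of several follicles. Far fewer follicles were classed as DF than as SF, at day 7 above all. For that day the paper counted 3 DF follicles, as many as there were DF replicates. An SF and a DF sample of day 7 can thus differ in how many follicles they hold. The heifers of the days were different animals, while SF and DF of a day came from the ovaries of the same set of heifers. Samples of SF and DF of a day can therefore share animals, but no label ties a replicate number to an animal. Whether the replicates of a group came from different heifers was not stated in the paper. The tests treated the samples as independent. The p values measure the spread between these samples, which may not cover the spread between animals.

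MicroRNAs of the miR-26 family share the seed, the bases of the miRNA that pair with target mRNAs, and their genes lie inside genes of the CTDSP family, which encode small phosphatases acting on RNA polymerase II. The family is broadly expressed in differentiated tissues and is known to repress the histone methyltransferase EZH2. In the porcine ovary miR-26b has been linked to granulosa cell apoptosis during follicular atresia. In the RefSeq gene table for the assembly ARS-UCD2.0, MIR26A-1 lay within CTDSPL, MIR26A-2 within CTDSP2 and MIR26B within CTDSP1. The fourth gene of the table, MIR26C, had the same start and end as MIR26A-1. Strands were not compared, and whether bta-miR-26c has the seed of the family was not looked at here.

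The mature bta-miR-26a was listed with both of its precursors, and their counts could not be told apart. In 1 library the precursors had the same count, and in the others the entry for bta-mir-26a-2 was higher by at most 50 reads, which was at most 0.0803% of the bta-miR-26a reads. A read of the mature sequence was thus counted at both, and the higher entry stands for bta-miR-26a here. A single precursor was listed for bta-miR-26b. The name bta-miR-26c was listed with 0 reads in each library, which allows a share of up to 0.000741% to 0.00187% of a library. No entry was named for a passenger strand of the family.

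The libraries held between 160418 and 405129 reads on known miRNAs, with a median of 297448. For any pair of replicates the chi-square per degree of freedom was at least 10.2, so that none agreed within counting error. Of the granulosa markers, bta-miR-202, a miRNA of the gonads, had between 2043 and 6008 reads in the libraries of SF and of DF at day 3, but between 219 and 1084 in DF at day 7. The summed share of bta-miR-202, bta-miR-224 and bta-miR-383 was 0.139% to 0.337% in DF at day 7 and 0.746% to 1.54% elsewhere, and bta-miR-383 had 0 reads in each DF library of day 7. The 4 leukocyte miRNAs (bta-miR-142-5p, bta-miR-142-3p, bta-miR-150 and bta-miR-223) summed to between 0.267% and 3.24% in DF at day 7 and to at most 0.246% elsewhere. Among these, bta-miR-142-5p had 3082, 4115 and 714 reads in the DF libraries of day 7. In the same group bta-miR-143 and bta-miR-145, miRNAs of smooth muscle and stroma, summed to 2.52% to 4.83%, against 0.841% to 1.88% elsewhere. The erythrocyte list (bta-miR-451, bta-miR-486 and bta-miR-144) summed to 0.153% to 0.172% in SF at day 7, 0.275% to 0.870% in DF at day 7 and 0.119% to 0.629% at day 3. The endothelial pair bta-miR-126-3p and bta-miR-126-5p stayed between 0.0270% and 0.0768%. The part of these cells in the values below was not tested. In bulk samples, fewer cells of a type and less RNA per cell cannot be told apart.

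The most abundant miRNA of the data set was bta-miR-26a. It ranked first in 9 of the 12 libraries and second in the other 3, where bta-miR-10b, a miRNA encoded in the HOXD cluster, had more reads. These were SF replicate 1 of day 3 and SF replicates 1 and 3 of day 7. In the last of them the counts were close, with 74137 reads of bta-miR-26a and 74350 of bta-miR-10b.

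Of the reads on known miRNAs, bta-miR-26a took 13.0%, 18.2% and 17.3% in the SF replicates 1 to 3 of day 3. In DF of that day it took 17.8%, 15.6% and 15.1%. At day 7 the SF replicates had 15.2%, 22.3% and 23.0%. The DF replicates of day 7 had 16.4%, 16.7% and 15.2%. The SF libraries 2 and 3 of day 7 thus stood above the other 10, and SF replicate 1 of that day lay within the range of the other groups. The 95% Wilson interval of a single share was at most 0.365 percentage points wide. It covers counting error only, and since PCR copies were not told apart it may be too narrow even for that. It was small beside the spread between replicates. For SF the mean was 16.2% ± 2.79 (SD, n = 3) at day 3 and 20.2% ± 4.28 at day 7. For DF it was 16.2% ± 1.44 and 16.1% ± 0.817.

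A share depends on what else a library holds. Between the groups, bta-miR-10b moved from 14.0% ± 2.56 (SD, n = 3) of the reads in DF at day 3 to 5.65% ± 0.398 in DF at day 7, while bta-miR-21-5p moved from 0.302% ± 0.0512 to 13.3% ± 1.88. Together they held 14.3% and 19.0%. With both removed from the total, the mean share of bta-miR-26a was 19.4% (day 3) and 26.2% (day 7) in SF, and 18.9% and 19.9% in DF, which kept SF of day 7 highest.

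Normalized counts, the raw counts divided by median-of-ratios size factors over the 12 libraries, gave the same order of libraries within SF. For bta-miR-26a they were 34789, 50205 and 46938 in SF at day 3. In DF at day 3 they were 47995, 39689 and 35380. At day 7 they were 42090, 65514 and 74083 in SF. The DF replicates of day 7 lay close together, with 44346, 45706 and 45670. The range of every group overlapped with that of each group it was compared with. In order of the mean, the groups were DF at day 3 with 41022 ± 6412 (SD, n = 3), SF at day 3 with 43978 ± 8123, DF at day 7 with 45240 ± 775 and SF at day 7 with 60562 ± 16561. Neighbours in this order overlapped in their single values, as did the highest and the lowest group. The coefficient of variation of the normalized counts was 1.71% in DF and 27.3% in SF at day 7, and that of the shares was 5.08% and 21.2%.

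The second member, bta-miR-26b, was far less abundant, between rank 31 and rank 41 of a library. It took 0.404%, 0.471% and 0.436% of the reads in the SF replicates of day 3. In DF of day 3 the shares were 0.433%, 0.445% and 0.433%. At day 7 they were 0.403%, 0.391% and 0.389% in SF. In DF at day 7 they were 0.451%, 0.420% and 0.367%. The libraries with a high share of bta-miR-26a at day 7, SF replicates 2 and 3, were therefore not high in the share of bta-miR-26b. By normalized count, SF replicate 3 of day 7 was near the top for bta-miR-26b, with 1254 against a maximum of 1299.

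In normalized counts bta-miR-26b varied little. At day 3 the SF replicates had 1080, 1299 and 1181, those of DF 1164, 1130.2 and 1012. For day 7 the values were 1112, 1150.2 and 1254 (SF) and 1218, 1149.6 and 1105 (DF). All 12 values lay between 1012 and 1299. The group means were 1102 ± 79.9 (SD, n = 3) in DF at day 3, 1157 ± 57.2 in DF at day 7, 1172 ± 73.6 in SF at day 7 and 1187 ± 109 in SF at day 3, so that each step in this order was smaller than the SD of either neighbour.

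**Figure D1:**
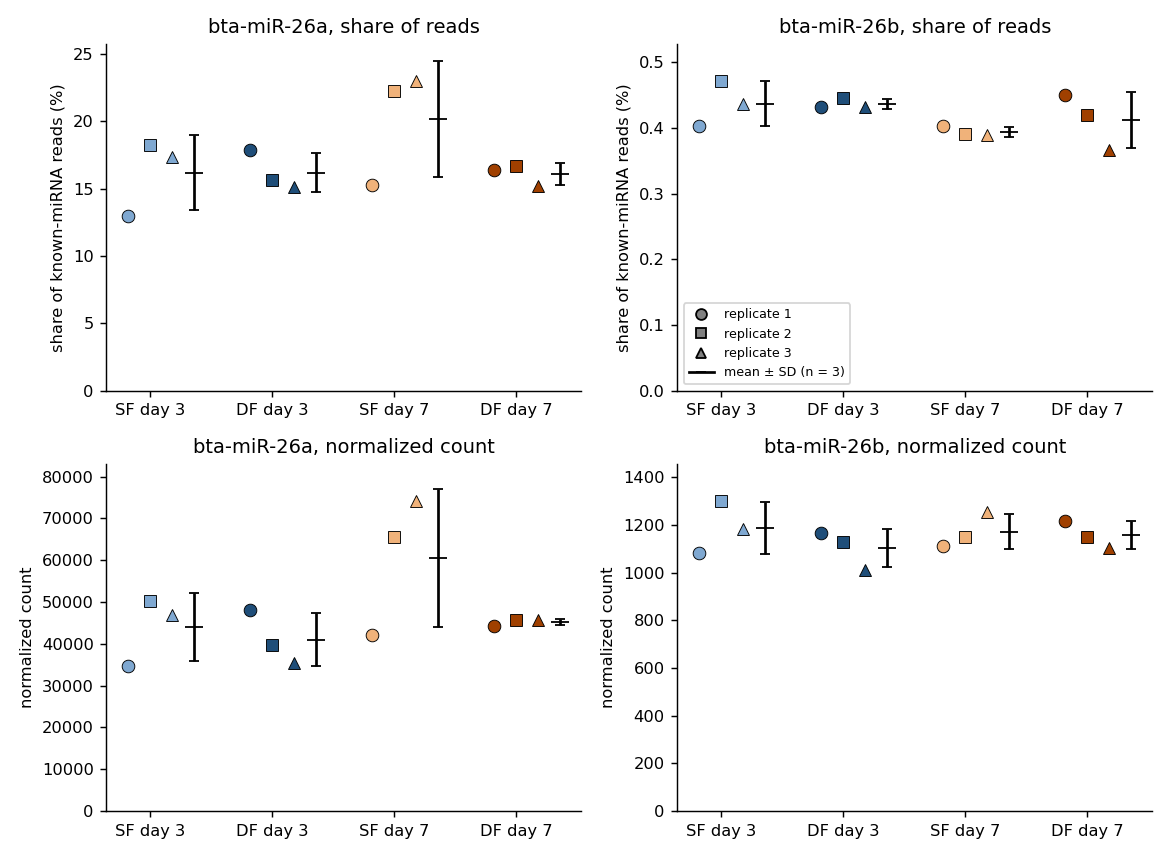
Share of the known-miRNA reads in percent (upper panels) and normalized count (lower panels) of bta-miR-26a (left) and bta-miR-26b (right) in the 4 groups, with 1 marker per library, a marker shape for each replicate number and the mean ± SD (n = 3) beside them. For bta-miR-26a, SF replicates 2 and 3 of day 7 (22.3% and 23.0% of the reads) stand above the other libraries, while bta-miR-26b stays between 0.367% and 0.471%.

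The ratio of the members within a library needs no scaling. There were 32.2, 38.6 and 39.7 reads of bta-miR-26a per read of bta-miR-26b in the SF replicates of day 3, and 41.2, 35.1 and 35.0 in the DF replicates of day 3. At day 7 the ratios were 37.9, 57.0 and 59.1 in SF and 36.4, 39.8 and 41.3 in DF. In 10 of the 12 libraries the ratio lay between 32.2 and 41.3, and SF replicates 2 and 3 of day 7 lay above that. The group means were 36.9 ± 4.07 (SD, n = 3), 37.1 ± 3.57, 51.3 ± 11.7 and 39.2 ± 2.52 in SF and DF of day 3 and SF and DF of day 7, respectively.

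Whether the ratio differed among the 4 groups was asked with an exact permutation test of the one-way F statistic over all 369600 divisions of the 12 libraries, in a family of 4 such tests with Benjamini-Hochberg adjustment. The exact p was 0.105 for the log2 ratio (adjusted p = 0.331). For the shares of bta-miR-26a, of bta-miR-26b and of their sum the exact p was 0.324, 0.250 and 0.331 (adjusted p = 0.331 for each). Without SF replicate 1 of day 7 the exact test gave an adjusted p of 0.0561 for the share of bta-miR-26a and for the sum, and 0.309 for bta-miR-26b. In exact two-sided permutation tests of 3 libraries against 3, which cannot go below p = 0.1, the geometric mean ratio of SF was 1.29 times that of DF at day 7 (p = 0.3, adjusted over the 4 comparisons 0.533), and within SF that of day 7 was 1.37 times that of day 3 (p = 0.3, adjusted 0.533). By the same exact test, in DF the ratio of day 7 was 1.06 times that of day 3 (p = 0.4, adjusted 0.533), and at day 3 that of SF was 0.992 times that of DF (p = 1, adjusted 1). The exact test over the 4 groups gave an adjusted p of 0.0496 without SF replicate 1 of day 7, and between 0.0496 and 0.759 over all alternatives.

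**Figure D2:**
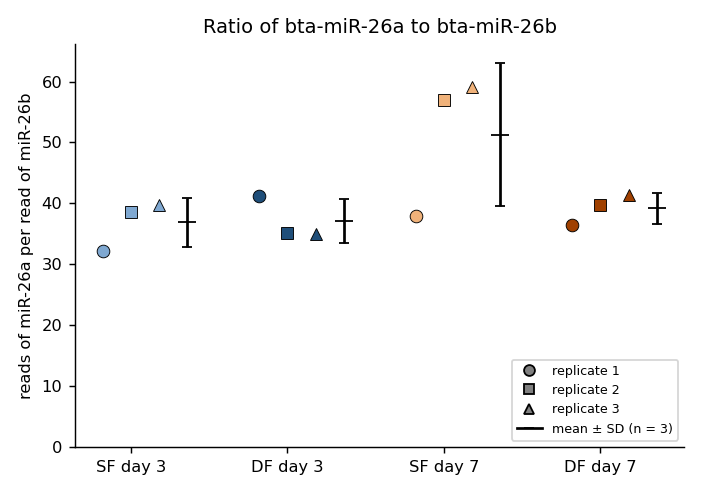
Reads of bta-miR-26a per read of bta-miR-26b in each library (markers by replicate number), with the mean ± SD (n = 3) of each group beside them. The ratio was 57.0 and 59.1 in SF replicates 2 and 3 of day 7 and at most 41.3 in the other 10 libraries.

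For the 4 comparisons of the study, edgeR's quasi-likelihood test was run on the raw counts, each time with 6 libraries and all miRNAs detected in either group. The test was passed at an adjusted p of at most 0.10, and a miRNA was differentially expressed if its log2 fold change was also at least 1 in size and its p at most 0.05. Neither member passed in any comparison or in the interaction, 0 of 10 tests, and 2 of the 10 had an unadjusted p under 0.05, both of bta-miR-26a. With DESeq2 0 of the 10 passed and 0 had an unadjusted p under 0.05. In these edgeR fits no 95% interval of a log2 fold change reached 1 in either direction, the widest bound being 0.98, or 1.98 fold. For bta-miR-26a between SF and DF at day 7 DESeq2 gave the same log2 fold change of 0.49 with a larger standard error of 0.31, so this bound holds for edgeR as run here. The comparisons share groups, so their values are not independent of each other.

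Comparing SF with DF at day 3, to see miRNAs that go with follicle recruitment and selection, bta-miR-26a had a log2 fold change of 0.06 (standard error 0.13, 95% interval -0.21 to 0.33, adjusted p = 0.860, edgeR). That of bta-miR-26b was 0.06 (standard error 0.14, interval -0.22 to 0.34, adjusted p = 0.860, edgeR). Of the 335 miRNAs tested, 16.7% passed, 8.66% with more and 8.06% with fewer reads in SF, and 5.67% were differentially expressed. The groups did not overlap in normalized counts for 27.8% of them, but overlapped for both members. The small positive values turned to -0.14 and -0.13 with upper-quartile scaling, which moved the median over all miRNAs by -0.18.

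Between SF and DF at day 7, where the question was follicular dominance, the members had unlike values. The log2 fold change of bta-miR-26a was 0.49 in favour of SF, or 1.41 fold (standard error 0.22, interval 0.0017 to 0.98, adjusted p = 0.115, edgeR). For bta-miR-26b it was 0.09 (standard error 0.19, interval -0.34 to 0.52, adjusted p = 0.722, edgeR). Of the 350 miRNAs, 39.7% passed, 19.4% with more and 20.3% with fewer reads in SF, and 33.4% were differentially expressed. In 45.7% the groups did not overlap, and in both members they did. Against the median of all tested miRNAs, the difference of bta-miR-26a was 0.52 to 0.56 on the log2 scale under all 5 scalings. Without SF replicate 1 the log2 fold change of bta-miR-26a was 0.71 (adjusted p = 0.00686, edgeR). It also passed with upper-quartile scaling, without a filter, with all entries as listed and with counts summed over precursors. The entries as listed and the summed counts hold nearly every bta-miR-26a read at both precursors. In 14 of the 19 alternatives bta-miR-26a did not pass. Among these were DESeq2 (adjusted p = 0.217), TMM scaling (adjusted p = 0.176, edgeR) and library size alone (adjusted p = 0.240, edgeR). Over all alternatives the adjusted p ran from 0.00686 to 0.386. The highest came without SF replicate 3 (log2 fold change 0.33), and without SF replicate 2 the log2 fold change was 0.42 (adjusted p = 0.287, edgeR).

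In DF, day 7 against day 3 gave a log2 fold change of 0.12 for bta-miR-26a (standard error 0.17, interval -0.24 to 0.49, adjusted p = 0.573, edgeR) and of 0.05 for bta-miR-26b (standard error 0.19, interval -0.35 to 0.45, adjusted p = 0.848, edgeR). This was the comparison in which most miRNAs moved, with 47.2% of 360 passing (26.4% higher and 20.8% lower at day 7), 40.3% differentially expressed and 50% without overlap between the days. All 4 leukocyte miRNAs and both stromal ones rose here and bta-miR-202 and bta-miR-224 fell, with log2 fold changes of 4.97 for bta-miR-142-5p (adjusted p = 2.34e-05, edgeR) and -2.28 for bta-miR-202 (adjusted p = 1.93e-05, edgeR). Of the leukocyte miRNAs, bta-miR-142-3p (5, 4 and 1 reads in DF at day 7) and bta-miR-223 (6, 5 and 5) were near the floor. Their part in the values of the members was not tested. Both values turned negative with library size alone, with upper-quartile scaling, with all entries as listed and without DF replicate 3 of day 3, the lowest being -0.20 and -0.26 with upper-quartile scaling, which moved the median by -0.29.

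In SF, day 7 against day 3 gave a log2 fold change of 0.47 for bta-miR-26a, or 1.39 fold (standard error 0.20, interval 0.041 to 0.91, adjusted p = 0.409, edgeR). For bta-miR-26b the value was -0.0033 (standard error 0.16, interval -0.34 to 0.34, adjusted p = 0.987, edgeR). Few miRNAs moved here, with 0.890% of 337 passing, 0.593% differentially expressed and 13.9% without overlap. Without SF replicate 1 of day 7 the log2 fold change of bta-miR-26a was 0.66 (adjusted p = 0.00412, edgeR), and without a filter it was 0.47 (adjusted p = 0.0165, edgeR). In 16 of the 19 alternatives bta-miR-26a did not pass, DESeq2 (adjusted p = 0.433) among them. The adjusted p ran from 0.00412 to 0.828 over all alternatives, the highest without SF replicate 1 of day 3 (log2 fold change 0.30).

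An interaction over the 12 libraries tested whether SF and DF were apart by different amounts on the 2 days. It was 0.32 on the log2 scale for bta-miR-26a (standard error 0.27, interval -0.25 to 0.89, adjusted p = 0.442, edgeR) and -0.09 for bta-miR-26b (standard error 0.22, interval -0.55 to 0.38, adjusted p = 0.826, edgeR). Of 378 miRNAs, 29.1% passed and 26.5% also reached a log2 value of 1 in size. Without SF replicate 1 of day 7 the value of bta-miR-26a was 0.52 (adjusted p = 0.0987, edgeR).

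**Figure D3:**
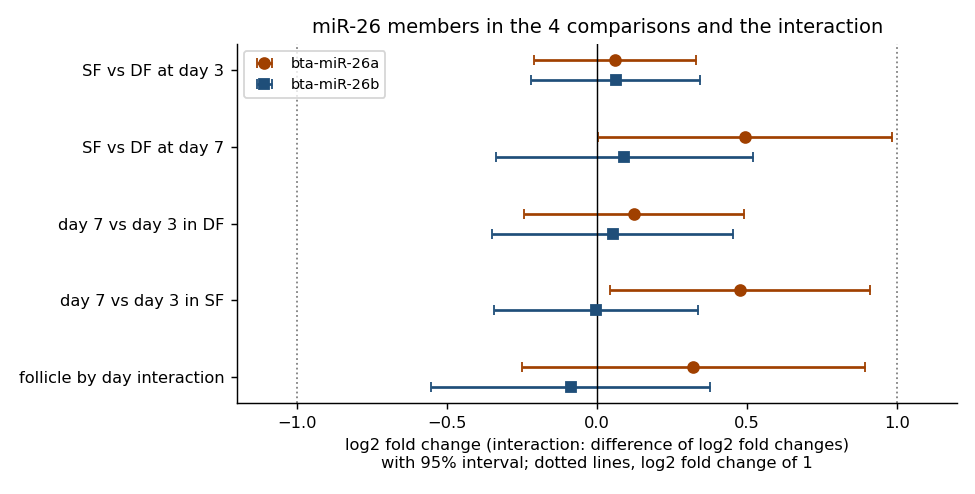
Log2 fold changes of bta-miR-26a (circles) and bta-miR-26b (squares) with 95% intervals in the 4 comparisons, the first group named over the second, and in the interaction. The intervals of bta-miR-26a stay just above 0 for SF against DF at day 7 (0.0017 to 0.98) and for day 7 against day 3 in SF (0.041 to 0.91), and none reaches the dotted lines at 1.

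**Figure D4:**
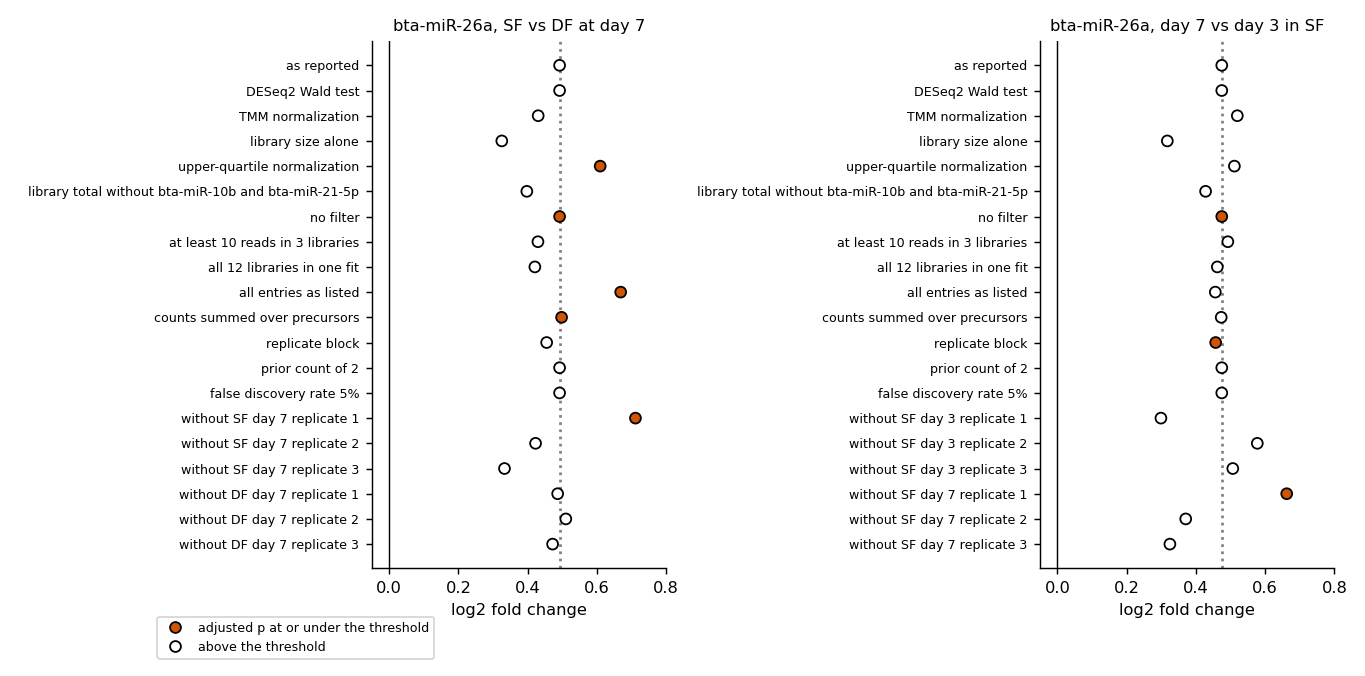
Log2 fold change of bta-miR-26a for SF against DF at day 7 (left) and day 7 against day 3 in SF (right) as reported and under each alternative, filled where the adjusted p was at or under the threshold. All values are positive, from 0.33 to 0.71 on the left and from 0.30 to 0.66 on the right, and the highest were those without SF replicate 1 of day 7.

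The standing of SF replicate 1 of day 7 bears on each of these values. Set against replicates 2 and 3 of its group, it had chi-square values of 92.3 and 82.8 per degree of freedom, while those had 18.7 between them. It was not the only library apart from its group, since DF replicates 2 and 3 of day 7 had the highest value of all pairs, 128. Its leukocyte share of 0.0685% was close to the 0.0663% of replicate 3, and replicate 2 had 0.246%. The part of this library in the result was measured by leaving it out, as given above. The chi-square values cover all but the rarest miRNAs. They include bta-miR-26a, whose own difference between the libraries adds to them. How much it adds was not tested.

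Among the 186 miRNAs with a mean of at least 10 normalized counts, bta-miR-26b had the smallest distance between its highest and its lowest group mean, 0.11 on the log2 scale or 1.08 fold. For bta-miR-26a this was 0.53 or 1.45 fold, the 35th smallest, against a median of 1.24 over the 186. Within groups the pooled SD was 0.10 for bta-miR-26b, the 7th smallest, and 0.28 for bta-miR-26a, the 66th smallest, with a median of 0.35. The next in distance after bta-miR-26b was bta-miR-151-3p, with 0.15. The other miRNA near the level of bta-miR-26a, bta-miR-10b, spanned 1.96, or 3.89 fold. These ranks describe the data and carry no test. They depend on the scaling. With TMM bta-miR-26b was still the lowest (0.086), with library size alone it was in position 2 (0.15), and with upper-quartile scaling in position 8 (0.23), where bta-let-7d was lowest (0.036). For bta-miR-26a the distance was 0.50, 0.31 and 0.49 under these scalings.

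**Figure D5:**
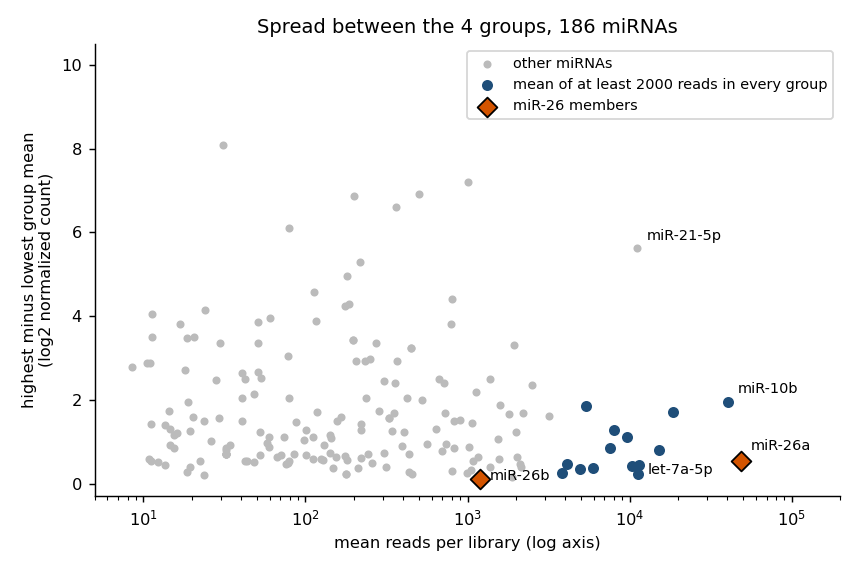
Distance between the highest and the lowest group mean (log2 normalized count) against the mean reads per library (log axis) for 186 miRNAs, with the 15 miRNAs of at least 2000 mean reads in every group in dark and the miR-26 members as diamonds. With median-of-ratios scaling the point of bta-miR-26b is the lowest of all at 0.11, and bta-miR-26a lies at 0.53 with the most reads.

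For context, 15 miRNAs including bta-miR-26a were set apart for their abundance in these libraries, with no group mean under 2000 reads. At day 3, of the other 14 miRNAs, 2 were higher and 1 lower in SF and 11 did not pass (edgeR), while 16.7% of all tested miRNAs passed. At day 7, 6 were higher and 2 lower in SF, while 39.7% of all tested passed. Their median log2 fold change was 0.44 against -0.05 over all miRNAs, so that the 0.49 of bta-miR-26a was near the median of the abundant miRNAs. In DF 2 were higher and 7 lower at day 7 than at day 3, with a median of -0.38 against 0.05, and 47.2% of all tested passed. In SF 0 of the 14 passed between the days with edgeR, against 0.89% of all tested, and their log2 fold changes lay between -0.45 and 0.55. Over the 15, bta-miR-26a ranked 8th from the smallest distance between group means and 12th from the smallest SD within groups, and bta-let-7a-5p was first in both.

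The miRNAs whose course over the 12 libraries was nearest to each member were found by the root mean square difference of centred log2 normalized counts among 185 candidates. Nearest to bta-miR-26a was bta-miR-532 (0.18), followed by bta-miR-10a (0.22), bta-miR-26b (0.25), bta-miR-660 (0.26) and bta-miR-320a (0.28). Both MIR532 and MIR660 lie within CLCN5 in the RefSeq table, and MIR10A within HOXB3. The means of bta-miR-532 were 204 and 192 normalized counts in SF and DF at day 3 and 243 and 187 at day 7, with SF of day 7 highest as for bta-miR-26a. For bta-miR-10a the means of day 3 were 248 (SF) and 207 (DF), those of day 7 321 (SF) and 190 (DF). Between SF and DF at day 7 the log2 fold changes were 0.83 for bta-miR-10a, 0.64 for bta-miR-320a, 0.45 for bta-miR-532 and 0.15 for bta-miR-660. They were chosen for their likeness to bta-miR-26a over the same libraries, so these values are a description.

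Nearest to bta-miR-26b were bta-miR-140 (0.14), bta-let-7g (0.16), bta-let-7a-5p (0.16), bta-miR-151-3p (0.17) and bta-let-7d (0.18). From the smallest distance between group means, these were in positions 12, 19, 5, 2 and 11 of 186, in the same order. By this measure miRNAs that vary little lie near each other, so the list is a description and shows no shared course. From the side of bta-miR-26b, bta-miR-26a was in position 18, and from the side of bta-miR-26a, bta-miR-26b was in position 3. The distance between the members, 0.25, was the same both ways. With TMM scaling the nearest 5 were unchanged for each member.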

How the data were processed

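After adapter removal with cutadapt, the authors mapped reads to the UMD 3.1 assembly (Ensembl) and used miRDeep2 with the bovine miRNAs of miRBase. The deposited values are raw read counts per pair of mature miRNA and precursor (906 entries), without normalization. How many mismatches were allowed, and how a read matching both members was assigned, was not given in the sources used here. Base calling used CASAVA 1.8.0 per the labels.

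Of several entries of a mature name, the one with most reads over the 12 libraries was kept. Detection meant at least 1 read in at least 2 of 3 replicates of a group. Tests used R 4.3.3 with edgeR 4.0.16 (quasi-likelihood F test, two-sided, median-of-ratios factors, prior count 0.125, Benjamini-Hochberg adjustment over all tested miRNAs). Standard errors are the log2 fold change divided by the square root of F, and intervals use the t quantile at the total degrees of freedom. The fold changes of a comparison used size factors of its own 6 libraries. Permutation tests were exact, in Python 3.11.15. For the profiles, 0.5 was added before the logarithm. Alternatives included DESeq2 1.42.0, other scalings, filters and entries, a replicate block and leaving out each library. The procedure was tested on simulated counts.

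Named were the members, other miR-26 names, miRNAs with more reads than bta-miR-26a in any library, the 5 nearest profiles of each member, cell type markers, bta-miR-10b and bta-miR-21-5p. The members and lists were chosen with earlier results of these data known. Mature sequences were not used here. The gene table was of another assembly and served for names and overlaps only. Quantitative PCR and theca cells were not analysed here.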

Additional observations from a re-analysis of the deposited data

How the results depend on the processing

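Fold changes near 0 changed sign between settings, and none of these passed. With library size alone the log2 fold change of bta-miR-26a was -0.0013 for SF against DF at day 3 and -0.0093 for day 7 against day 3 in DF, and that of bta-miR-26b was -0.066 for SF against DF at day 7 and -0.083 in DF. With upper-quartile scaling bta-miR-26a had -0.14 at day 3 and -0.20 in DF, and bta-miR-26b had -0.13 at day 3, -0.26 in DF, 0.036 for day 7 against day 3 in SF and 0.13 in the interaction. Without bta-miR-10b and bta-miR-21-5p in the total, bta-miR-26b had -9.36e-05 for SF against DF at day 7 and -0.0025 in DF. With all entries as listed the values in DF were -0.025 and -0.097. In SF bta-miR-26b had 0.039 with TMM scaling and 0.014 with at least 10 reads in 3 libraries. Scaling moved the median of all miRNAs by at most 0.29 on the log2 scale. With upper-quartile scaling 52.6% in place of 68.4% of the differentially expressed miRNAs were higher in SF at day 3, and 48.3% in place of 60.7% were higher at day 7 in DF.

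For SF against DF at day 7, bta-miR-26a passed with upper-quartile scaling (0.61), no filter (0.49), all entries (0.67) and summed counts (0.50), and for day 7 against day 3 in SF with no filter (0.47). It did not pass in 14 and 16 of the 19 alternatives of these comparisons, respectively.

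The replicate number as a block gave bta-miR-26a 0.46 in SF, which passed (adjusted p = 0.0187, edgeR), and bta-miR-26b 0.0022, and raised the differentially expressed miRNAs in SF from 2 to 7; it changed no other call of the members. The numbers are not known to pair the samples, since no label ties them to animals. Correlations of deviations of same-numbered libraries ran from -0.16 to 0.18 over the 4 comparisons. Each of the 6 libraries was nearest to its own number only for SF against DF at day 7, with correlations of 0.069 to 0.12. These low values do not decide whether the numbers pair SF and DF of day 7. With the block, bta-miR-26a had 0.45 in that comparison (adjusted p = 0.147, edgeR).

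Leaving out 1 library at a time gave bta-miR-26a -0.10 to 0.20 at day 3, 0.33 to 0.71 at day 7, -0.026 to 0.22 in DF, 0.30 to 0.66 in SF and 0.15 to 0.52 in the interaction, and bta-miR-26b -0.062 to 0.12 at day 3, -0.058 to 0.095 in DF, -0.10 to 0.063 in SF and -0.15 to 0.011 in the interaction. Calls were gained only without SF replicate 1 of day 7. Without SF replicate 2 of day 3, bta-miR-26a and bta-miR-26b had -0.10 and -0.062 at day 3, and bta-miR-26b 0.063 in SF and 0.011 in the interaction. Without DF replicate 3 of day 3, bta-miR-26a had -0.035 at day 3 and -0.026 in DF, and bta-miR-26b -0.058 in DF and 0.0029 in the interaction. Without SF replicate 1 of day 7, bta-miR-26b had 0.016 in SF. The adjusted exact p of the ratio lay between 0.0496 and 0.759.

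The differentially expressed miRNAs at day 3 numbered 19, and 11 with DESeq2, 12 with at least 10 reads in 3 libraries, 8 in one fit of 12 libraries and 10 to 21 with 1 library left out (10 without SF replicate 1). In DF they numbered 145, and 92 with at least 10 reads. In SF they numbered 2, and 5 with DESeq2, 9 with upper-quartile scaling, 12 with no filter, 10 with all entries, 1 in one fit and 0 with at least 10 reads (edgeR, 25 at an unadjusted p under 0.05). With 1 library left out they ran from 0 to 20, with 0 without SF replicates 1 or 2 of day 3 or SF replicate 2 of day 7 (25, 26 and 26 at an unadjusted p under 0.05), 4 without SF replicate 3 of day 3, 5 without SF replicate 3 of day 7 and 20 without SF replicate 1 of day 7. The cause of these changes was not tested. The spread between group means under other scalings was chosen after seeing the data, and that of bta-miR-26b moved from 0.11 to 0.23 with upper-quartile scaling.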

Other observations

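Among the 15 abundant miRNAs, those that set SF replicate 1 of day 7 apart from the other SF libraries of that day were looked at after the values were seen, so they carry no test. In normalized counts bta-miR-26a differed in it by -0.73 on the log2 scale from the mean of replicates 2 and 3, a difference in the same direction as that of SF replicate 1 of day 3 (-0.48). The levels of bta-let-7i and bta-miR-99b were higher in it, by 0.77 and 0.72, with 14956 against 7941 and 9578 normalized counts for bta-let-7i and 20651 against 12318 and 12815 for bta-miR-99b, and that of bta-miR-143 was lower (-0.61). At day 3 the values of SF replicate 1 were -0.19 for bta-let-7i, 0.16 for bta-miR-99b and 0.34 for bta-miR-143. Replicates of different days share only a number.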
